A study of Mus musculus with 12 samples.

Results

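The mRNA of 4 interferon genes and 6 interferon receptor chains was followed in mouse T cells with and without functional STING. The 10 genes were chosen by name: Ifnb1, Ifnl2, Ifnl3 and Ifng, and the chains of the receptors for type I, type II and type III interferon. By Ensembl identifier 10 of 10 were found in the count files, and 9 also stood in the log2 expression table of 11921 genes that the authors deposited, which does not list Ifnlr1. RNA sequencing covered CD4+ T cells sorted from the spleens of C57BL/6 mice in 4 groups of 3 libraries. WT cells and STINGgt/gt cells (named STING KO in the sample labels) each received the solvent DMSO or the STING agonist CMA (10-carboxymethyl-9-acridanone), and were harvested at 16 h. Before treatment, the cells of all 4 groups had been activated through CD3 and CD28 and rested. STINGgt/gt (Goldenticket) mice carry a missense allele of Tmem173, the gene for STING, in every cell.

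Interferons are secreted cytokines that make cells resist virus infection. IFN-β and the IFN-α family (type I) act through a receptor of the chains IFNAR1 and IFNAR2, IFN-γ (type II) through IFNGR1 and IFNGR2, and IFN-λ (type III) through IFNLR1 and IL10RB, the second of which also serves IL-10 and IL-22. Downstream of STING, the transcription factor IRF3 is activated by the kinase TBK1, and NF-κB is switched on too. Both factors bind the promoter of the IFN-β gene. IFN-γ is the main interferon made by T cells.

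Reads counted on genes numbered 27414450 to 43784910 per library (median 36418677). Tmem173 mRNA lay at 183 to 190 counts scaled to library size (CPM) in WT with DMSO, at 296 to 316 in WT with CMA, at 168 to 181 in STINGgt/gt with DMSO and at 169 to 184 in STINGgt/gt with CMA, so that the level of the mutated gene does not check the genotype. Of 6 T cell markers, 4 fell and 1 rose with CMA in WT, beside 37.4% and 33.0% of all genes tested. There Cd3e went from 252 to 160 CPM and Cd4 from 435 to 498. None of the 6 markers was called with CMA in STINGgt/gt by edgeR. Their sum was 2074 to 2277 CPM in WT with DMSO, 1949 to 1981 in WT with CMA, 2243 to 2280 in STINGgt/gt with DMSO and 2203 to 2284 in STINGgt/gt with CMA. The study calls the libraries of a group biological replicates. The sample labels do not say whether they came from separate mice or cultures, so p-values measure the spread between these libraries. Unless stated otherwise, adjusted p-values come from the quasi-likelihood test of edgeR (Benjamini-Hochberg, over 13811 genes), with 0.05 as the threshold, and levels are CPM after TMM scaling as mean ± SD.

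The promoter of Ifnb1 is shown because Ifnb1 is the interferon gene best known to be induced downstream of STING. The stretch below runs from base 170 to base 101 before the RefSeq start of Ifnb1 (GRCm38.p6, chr4:88522895-88522964, minus strand, written 5′ to 3′ along the gene). Capitals mark the match to the NF-κB motif searched here, GGANNTTCC, where N is any base.
Ifnb1: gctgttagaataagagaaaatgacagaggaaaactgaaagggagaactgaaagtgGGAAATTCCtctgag
The match lies at bases 115 to 107 before the start and reads as the motif on both strands, which was counted as 1 place. Of 32851 RefSeq promoters, 3.59% held this motif on either strand in the 250 bases before the start. RefSeq promoters were found for 9 of the 10 genes (Il10rb is named only). Besides Ifnb1, Ifngr2 held the NF-κB motif, beginning 75 bases before its start. The second motif searched on both strands, the IRF motif GAAANNGAA, was held by 7.13% of all promoters and by none of the 9. That says only that these letters are not in these windows. For Ifnl2 the RefSeq start lies 95 bases inside the gene as GENCODE M21 draws it, so the window searched may not be its promoter, and it is not printed. The RefSeq start of Ifnlr1, at 135686457, also lies inside its GENCODE gene, which starts at 135686287, so the same limit holds for Ifnlr1.

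The first comparison asked which interferon genes and receptor chains respond to CMA in WT T cells. Ifnl2, Ifnl3 and Ifnb1 went from at most 2 reads per library to between 34 and 900, the mean of Ifnar1 rose to 1.97 times its level with DMSO, and those of Ifngr1 and Ifngr2, both chains of the IFN-γ receptor, to 1.58 and 1.61 times. Ifng and Ifnlr1 fell. Of the 10 genes, 6 were higher with CMA (3 interferon genes and 3 receptor chains), 3 were lower and 1 did not pass the test. All 10 had passed the filter on low counts, but Ifnb1, Ifnl2 and Ifnl3 did so through WT with CMA alone, so their share in these counts and in the median is no support. Tested without a filter, each of the 3 was called higher by edgeR as well. Over all genes tested, 33.0% were higher and 37.4% lower, so the number of called genes among the 10 is to be read against a response that covered most of the transcriptome. The median log2 change was 0.67 over the 10 genes and 0.30 over the 6 receptor chains, beside -0.04 over all genes.

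Ifnl3 (ENSMUSG00000060747, chromosome 7 of GRCm38, 28522836 to 28524322, plus strand, 5 exons) encodes an IFN-λ. In WT it had 0, 0 and 0 reads with DMSO and 900, 838 and 615 with CMA, or 25.1, 25.9 and 19.4 CPM. In STINGgt/gt it had 1, 1 and 0 reads with DMSO and 0, 1 and 1 with CMA. All 3 WT CMA libraries stood apart from the other 9, and replicate 3 was the lowest of them. With the DMSO libraries set at a floor of 3 counts per library, the mean of the WT CMA libraries was at least 249-fold higher (adjusted p = 3.09e-13, edgeR). An exact two-sided permutation test of 3 libraries against 3 gave p = 0.1, the smallest p it allows.

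Ifnl2 (ENSMUSG00000059128, chromosome 7, 28508836 to 28510455, minus strand, 5 exons) encodes the neighbouring IFN-λ and lies 12381 bases from Ifnl3 on the opposite strand. In WT it had 1, 0 and 2 reads with DMSO and 867, 805 and 537 with CMA, or 24.2, 24.8 and 16.9 CPM. STINGgt/gt libraries had 1, 2 and 1 reads with DMSO and 0, 0 and 1 after CMA. Again the WT CMA libraries did not overlap with any other. With 3 reads in the WT DMSO group in all, the ratio of CMA to DMSO was 724 with an exact 95% interval of 247 to 3513, which covers counting error only (adjusted p = 1.32e-13, edgeR).

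The transcripts of Ifnl2 and Ifnl3 (702 and 582 bases) were identical at 565 of 582 aligned bases, 97.1%. Of the 50-base windows of Ifnl2, 31.7% also occurred in Ifnl3, and of those of Ifnl3, 38.8% occurred in Ifnl2. Reads that fit both places equally were not counted, so the split between both genes is uncertain. Their sum was therefore taken as well. It reached 45.4 ± 7.93 CPM in WT with CMA (SD, n = 3) from 1152 to 1767 reads per library, against at most 3 reads in any other library. Set against WT with DMSO the sum was higher by a ratio of 1495 (exact 95% interval 511 to 7251, for counting error only). Within each WT CMA library, Ifnl3 exceeded Ifnl2 per length of transcript, with a ratio of 1.25 to 1.38.

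Ifnb1 (ENSMUSG00000048806, chromosome 4, 88522025 to 88522794, minus strand, 1 exon) encodes IFN-β. Reads numbered 0, 1 and 1 in WT with DMSO and 58, 55 and 34 with CMA, or 1.62, 1.70 and 1.07 CPM. STINGgt/gt libraries had 1, 0 and 0 reads with DMSO and 1, 1 and 1 after CMA. The WT CMA libraries lay above the other 9 without overlap, and replicate 3 was again the lowest. With 2 reads in the WT DMSO group the ratio was 72.3 (adjusted p = 5.16e-09, edgeR). Its exact 95% interval of 19.6 to 602 covers counting error only. No 50-base window of Ifnb1 occurred in another gene's transcripts.

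Per kilobase of merged exon, WT CMA libraries held 40.3 ± 6.08 CPM of Ifnl3 and 31.3 ± 6.26 of Ifnl2 but 1.95 ± 0.454 of Ifnb1 (SD, n = 3). Ifng stood at 26.4 ± 2.21 on the same scale. On this scale Ifnl3 was above Ifnl2, Ifnl2 above Ifng and Ifng above Ifnb1 within each of the 3 libraries, although the mean ± SD of Ifnl2 overlapped those of Ifnl3 and Ifng.

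**Figure D1:**
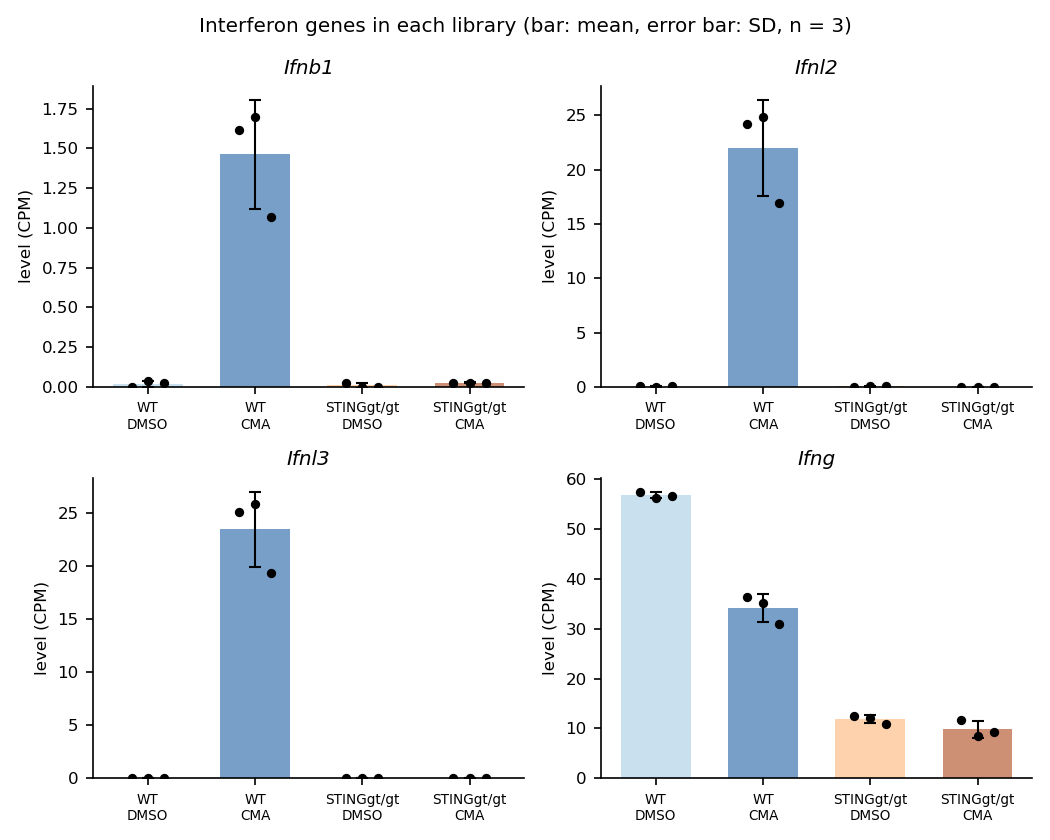
Levels of Ifnb1, Ifnl2, Ifnl3 and Ifng in CPM (linear axes that differ between panels) for the 4 groups, with a point for each library, a bar for the mean and an error bar for the SD. Ifnb1, Ifnl2 and Ifnl3 stand above the baseline in the 3 WT CMA libraries alone, whereas Ifng is highest in the 3 WT DMSO libraries, at 56.3 to 57.5 CPM.

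Other interferon genes were examined as a list of 17, of which 13 were in the count files. Ifna4 was the one that passed the filter on low counts, which it did through WT with CMA alone, so its values are a description. It had 63, 61 and 66 reads in WT with CMA and at most 3 in any other library. The ratio to WT with DMSO was 93.4 (exact 95% interval 25.5 to 777, for counting error only). Below the filter, Ifna2 had 13, 4 and 2 reads and Ifna1 3, 8 and 8 in WT with CMA, and neither had a read in WT with DMSO. Ifnz had 5, 12 and 11 reads in WT with CMA, where WT with DMSO had 3, 1 and 1.

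Ifng (ENSMUSG00000055170, chromosome 10, 118441047 to 118445892, plus strand) encodes IFN-γ. In WT it measured 57.5, 56.3 and 56.6 CPM with DMSO and 36.3, 35.2 and 30.9 with CMA. The groups did not overlap, and the log2 change was -0.73 (SE 0.081, adjusted p = 5.19e-07, edgeR). In STINGgt/gt it measured 12.6, 12.2 and 11.0 CPM with DMSO and 11.7, 8.55 and 9.20 with CMA, groups that overlapped, with a log2 change of -0.29 (SE 0.10, adjusted p = 0.212, edgeR). Without STINGgt/gt CMA replicate 1 that change was -0.43 and passed the threshold (adjusted p = 0.0361, edgeR). Between genotypes the effect of CMA differed, with a log2 difference of -0.45 (adjusted p = 0.00705, edgeR).

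The level of Ifng differed between genotypes without agonist as well, in the cultures given DMSO. With DMSO the mean was 4.77 times as high in WT as in STINGgt/gt, a log2 difference of 2.25 (SE 0.089, adjusted p = 1.05e-11, edgeR), and with CMA it was 3.48 times as high, a log2 difference of 1.80 (adjusted p = 2.19e-11, edgeR). Every WT library lay above every STINGgt/gt library, and the lowest WT value was 30.9 CPM against a highest STINGgt/gt value of 12.6.

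Markers of CD8 T cells and natural killer cells, which also make IFN-γ, moved with Ifng in part. The summed level of the 6 markers was 121 to 137 CPM in WT with DMSO, 59.1 to 63.9 in WT with CMA, 56.1 to 59.4 in STINGgt/gt with DMSO and 59.6 to 63.2 in STINGgt/gt with CMA. None of the 6 was at the floor of 3 counts throughout. With CMA in WT 5 of 6 fell, beside 37.4% of all genes. With DMSO 5 of 6 were higher in WT than in STINGgt/gt, beside 22.9% of all genes. Cd8a, the CD8 co-receptor, had means of 22.8 CPM in WT with DMSO and 12.9 with CMA, and in STINGgt/gt of 5.43 and 5.48. Nkg7, a gene of cytotoxic granules, went from 69.6 to 20.4 CPM in WT and from 33.4 to 36.6 in STINGgt/gt. In such bulk samples fewer cells of a type and less RNA per cell cannot be told apart, and the part of these cells in the level of Ifng was not tested.

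Among 16 regulators of Ifng transcription, 8 rose and 6 fell with CMA in WT, beside 33.0% and 37.4% of all genes. Their median log2 change was 0.10. The largest increases were those of Stat4, a signal transducer of IL-12, by 1.28 (adjusted p = 1.64e-13, edgeR), and of Il12rb2, a chain of the IL-12 receptor, by 0.90 (adjusted p = 6.72e-11, edgeR). Hlx, a homeobox factor of T helper 1 cells, had the largest decrease, of -2.40 (adjusted p = 2.54e-10, edgeR), followed by Twist1, a repressor found in the same cells, with -1.69 (adjusted p = 0.0148, edgeR) at a mean of 0.227 CPM with DMSO. In STINGgt/gt, Tbx21, which encodes T-bet, rose by 0.30 (adjusted p = 0.00208, edgeR) and Gata3 fell, with a log2 change of -0.31 (adjusted p = 0.00841, edgeR), and 14 of 16 did not pass. Of 12 other T cell cytokine genes, 4 rose (Il2, Il10, Il13 and Tnf) and 3 fell (Il3, Il17a and Tgfb1) in WT. This count also stands beside 33.0% of all genes higher and 37.4% lower. Il2 went from 3.40 to 20.9 CPM, a log2 change of 2.63 (adjusted p = 1.22e-11, edgeR), and was also the one cytokine called in STINGgt/gt, where it went from 5.50 to 9.74 CPM, a log2 change of 0.82 (adjusted p = 0.00243, edgeR). In WT, Il17a went from 1.39 to 0.391 CPM, a log2 change of -1.79 (adjusted p = 1.91e-05, edgeR).

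The chains of the type I receptor did not move as a pair. Ifnar1 (ENSMUSG00000022967, chromosome 16, 91485238 to 91507441, plus strand) encodes the chain of the type I receptor that binds the kinase TYK2. In WT it measured 117, 106 and 110 CPM with DMSO and 218, 218 and 222 with CMA, without overlap. The log2 change was 0.98 (SE 0.045, adjusted p = 8.97e-12, edgeR). In STINGgt/gt it measured 114, 119 and 125.5 CPM with DMSO and 114, 115 and 115 with CMA, which overlap, with a log2 change of -0.06 (SE 0.045, adjusted p = 0.597, edgeR). Between genotypes the effects differed, with a log2 difference of 1.04 (adjusted p = 7.80e-10, edgeR).

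Ifnar2 (ENSMUSG00000022971, chromosome 16, 91372783 to 91405589, plus strand) encodes the partner chain, which binds JAK1. In WT it measured 32.9, 35.6 and 34.9 CPM with DMSO and 29.7, 31.1 and 32.6 with CMA. These ranges lay next to each other without overlap, and the log2 change was -0.15 (SE 0.055, adjusted p = 0.0251, edgeR). This call was lost without WT DMSO replicate 2 or 3 or WT CMA replicate 1 (adjusted p up to 0.119) and in 6 other alternative analyses, and so stands at the limit of what these libraries resolve. In STINGgt/gt the log2 change was -0.08 (adjusted p = 0.573, edgeR), and the difference between genotypes was -0.07 (SE 0.078, adjusted p = 0.485, edgeR).

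Within a library the ratio of both chains does not depend on how libraries are scaled. Per kilobase of exon, Ifnar1 exceeded Ifnar2 by a ratio of 1.81 ± 0.160 in WT with DMSO, 3.95 ± 0.146 in WT with CMA, 2.04 ± 0.112 in STINGgt/gt with DMSO and 2.07 ± 0.111 in STINGgt/gt with CMA (SD, n = 3). The 3 WT CMA libraries (3.82 to 4.11) lay above the other 9, of which the highest had 2.20. This ratio was computed after the levels were seen and was not tested. It concerns mRNA, and merged exons include those of minor transcripts.

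Ifngr1 (ENSMUSG00000020009, chromosome 10, 19591949 to 19610229, plus strand) encodes the ligand-binding chain of the IFN-γ receptor. In WT it measured 83.4, 90.4 and 87.7 CPM with DMSO and 136, 132 and 145 with CMA, a log2 change of 0.66 (SE 0.048, adjusted p = 2.89e-09, edgeR). STINGgt/gt libraries had 51.1, 49.97 and 52.3 CPM with DMSO and 51.3, 48.2 and 51.9 with CMA (log2 change -0.02, adjusted p = 0.914, edgeR). The WT groups did not overlap, while those of STINGgt/gt did. The effects differed by 0.68 (adjusted p = 3.81e-07, edgeR).

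Ifngr2 (ENSMUSG00000022965, chromosome 16, 91547072 to 91565169, plus strand) encodes the second chain, which brings JAK2 to the receptor. It measured 38.9, 40.9 and 36.3 CPM in WT with DMSO and 59.9, 62.9 and 64.1 with CMA, a log2 change of 0.69 (SE 0.052, adjusted p = 5.24e-09, edgeR). In STINGgt/gt it went the other way, from 31.9, 30.1 and 31.7 CPM with DMSO to 25.2, 25.6 and 27.2 with CMA. Neither pair of groups overlapped. The log2 change in STINGgt/gt was -0.27 (SE 0.055, adjusted p = 0.0242, edgeR), and the effects differed by 0.95 (adjusted p = 1.95e-08, edgeR).

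Ifngr2 was the one of the 10 genes called with CMA in STINGgt/gt, where 0.398% of all genes were higher and 0.920% lower. None of the 10 was higher there by edgeR or by any alternative analysis, and at an unadjusted p under 0.05 in edgeR 3 of the 10 (Ifng, Ifngr2 and Il10rb) were lower, where 1790 of 13811 genes had such a p in either direction. The call of Ifngr2 was lost without any of STINGgt/gt DMSO replicates 1, 2 and 3 and STINGgt/gt CMA replicates 1 and 2, with adjusted p between 0.0572 and 0.109 (edgeR) and log2 changes of -0.29 to -0.24.

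Both IFN-γ receptor genes were also higher in WT than in STINGgt/gt. With DMSO the log2 difference was 0.77 for Ifngr1 (adjusted p = 3.36e-09, edgeR) and 0.31 for Ifngr2 (adjusted p = 0.000259, edgeR). With CMA it was 1.45 for Ifngr1 (adjusted p = 1.24e-13, edgeR) and 1.26 for Ifngr2 (adjusted p = 2.01e-12, edgeR). The ratio of Ifngr1 to Ifngr2 per kilobase was 2.99 ± 0.184 in WT with DMSO, 2.93 ± 0.133 in WT with CMA, 2.16 ± 0.0419 in STINGgt/gt with DMSO and 2.57 ± 0.114 in STINGgt/gt with CMA (SD, n = 3). In WT the ratio of one treatment overlapped that of the other, unlike the ratio of Ifnar1 to Ifnar2.

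Summed B cell markers, like Ifngr1, stood highest in WT with CMA, then in WT with DMSO, and lowest in both STINGgt/gt groups. The summed level of 6 markers was 253 to 266 CPM in WT with DMSO, 350 to 378 in WT with CMA, 115 to 122 in STINGgt/gt with DMSO and 114 to 115 in STINGgt/gt with CMA, and none was at the floor. With CMA in WT 5 of 6 rose, where 33.0% of all genes were higher and 37.4% lower. With DMSO 6 of 6 were higher in WT, beside 22.9% of all genes. The sum of 7 myeloid markers, most of it Cst3, was 54.3 to 61.3, 68.0 to 73.0, 40.6 to 43.4 and 38.0 to 43.2 CPM in the same order of groups, with 1 of 6 tested higher and 3 lower with CMA in WT, while 6 of 6 were higher in WT than in STINGgt/gt with DMSO and 4 of 6 with CMA. Of 6 markers of plasmacytoid dendritic cells, the cells best known for interferon production, Siglech and Ccr9 had at most 3 reads in any library, and the sum (647 to 687, 827 to 839, 777 to 813 and 869 to 917 CPM) was mostly Irf8 and Bst2, which T cells express too. With CMA in WT, 2 of the 4 tested rose and 2 fell. Per the methods the cells had been sorted as naive T cells before culture. The part of other cells in the receptor levels was not tested.

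**Figure D2:**
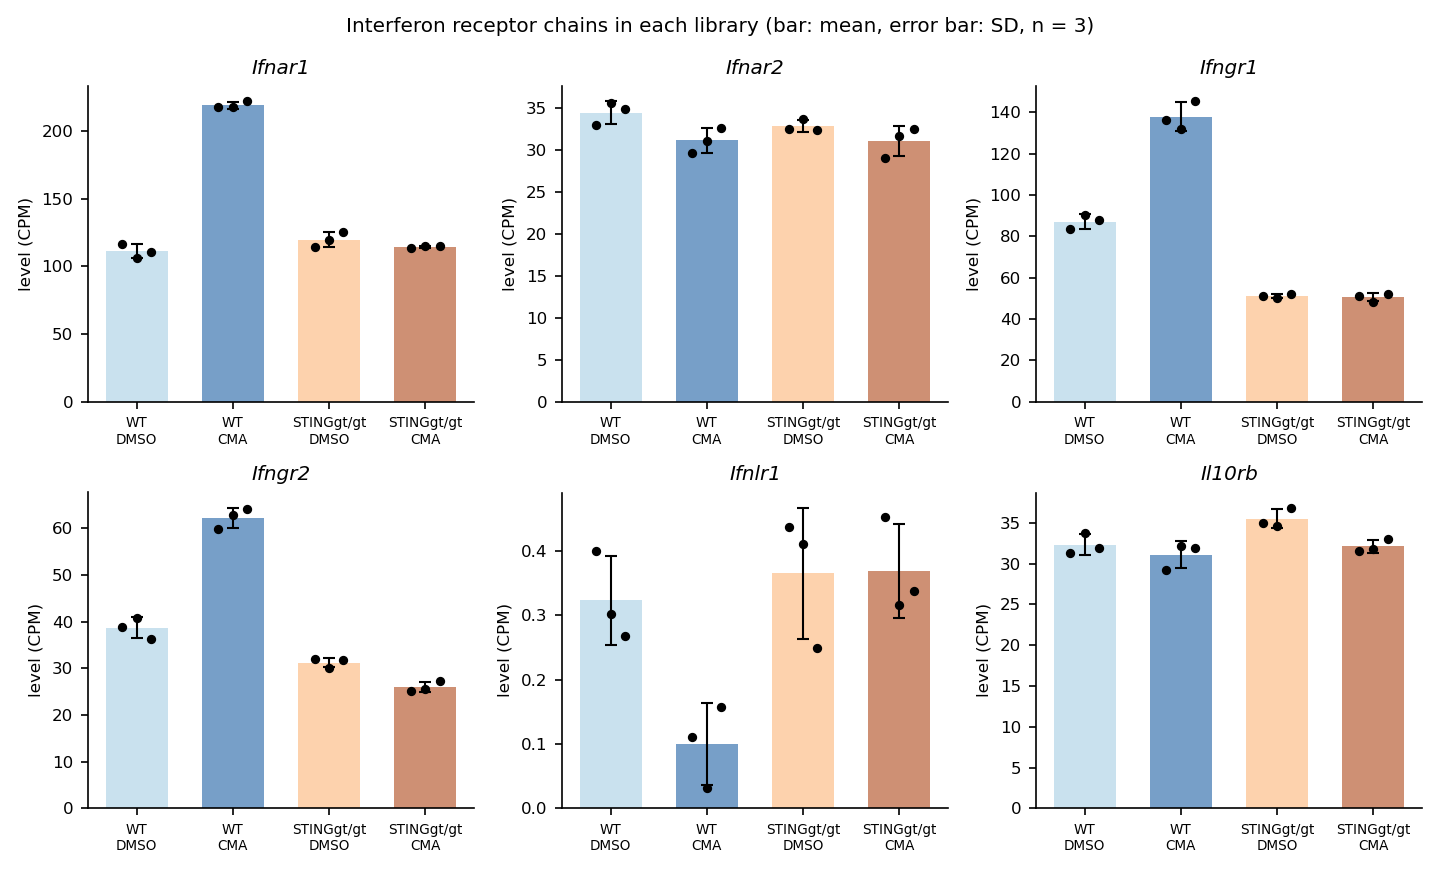
Levels of the 6 receptor chains in CPM (linear axes that differ between panels) for the 4 groups, with a point for each library, a bar for the mean and an error bar for the SD. Ifnar1, Ifngr1 and Ifngr2 are highest in WT with CMA, Ifnlr1 is lowest there, and Ifnar2 and Il10rb lie between 29.0 and 36.9 CPM in all 12 libraries.

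Ifnlr1 (ENSMUSG00000062157, chromosome 4, 135686287 to 135708181 in GENCODE M21, plus strand) encodes the chain that is specific to the IFN-λ receptor. It was scarce, with 11, 9 and 11 reads in WT with DMSO and 4, 1 and 5 with CMA. STINGgt/gt libraries had 17, 15 and 8 reads with DMSO and 17, 14 and 13 with CMA. In CPM, the WT CMA libraries (0.0309 to 0.158) lay below the other 9, the lowest of which had 0.249. The log2 change in WT was -1.63 (SE 0.46, adjusted p = 0.00465, edgeR) and in STINGgt/gt -0.02 (SE 0.31, adjusted p = 0.988, edgeR). The effects differed by -1.61 (adjusted p = 0.0210, edgeR), but not without WT DMSO replicate 1, WT CMA replicate 2 or STINGgt/gt CMA replicate 1 (adjusted p of 0.0537, 0.0749 and 0.0511, edgeR), nor with DESeq2 (adjusted p = 0.0599). With CMA, Ifnlr1 was lower in WT than in STINGgt/gt by a log2 difference of -1.84 (adjusted p = 0.00102, edgeR).

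Il10rb (ENSMUSG00000022969, chromosome 16, 91406164 to 91425834, plus strand) encodes the chain that IFN-λ shares with IL-10 and IL-22. It measured 31.3, 33.8 and 31.9 CPM in WT with DMSO and 29.2, 32.2 and 31.9 with CMA, which overlap (log2 change -0.06, SE 0.053, adjusted p = 0.351, edgeR). In STINGgt/gt it measured 35.0, 34.6 and 36.9 CPM with DMSO and 31.5, 31.8 and 33.0 with CMA, without overlap (log2 change -0.14, SE 0.051, adjusted p = 0.222, edgeR). With DMSO it was lower in WT than in STINGgt/gt by a log2 difference of -0.13 (adjusted p = 0.0469, edgeR), a call that was lost when WT DMSO replicate 1 or 3, WT CMA replicate 3 or any of the 3 STINGgt/gt DMSO libraries was left out (adjusted p up to 0.142). Of its partners and other class II cytokine receptors, 3 of 6 were tested. Il10ra, the specific chain of the IL-10 receptor, went from 132 to 299 CPM in WT, a log2 change of 1.19 (adjusted p = 2.00e-11, edgeR), F3 (tissue factor) fell from 4.97 to 1.13 CPM, a log2 change of -2.12 (adjusted p = 1.04e-09, edgeR), and Il20rb fell by 0.39 (adjusted p = 0.0497, edgeR).

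**Figure D3:**
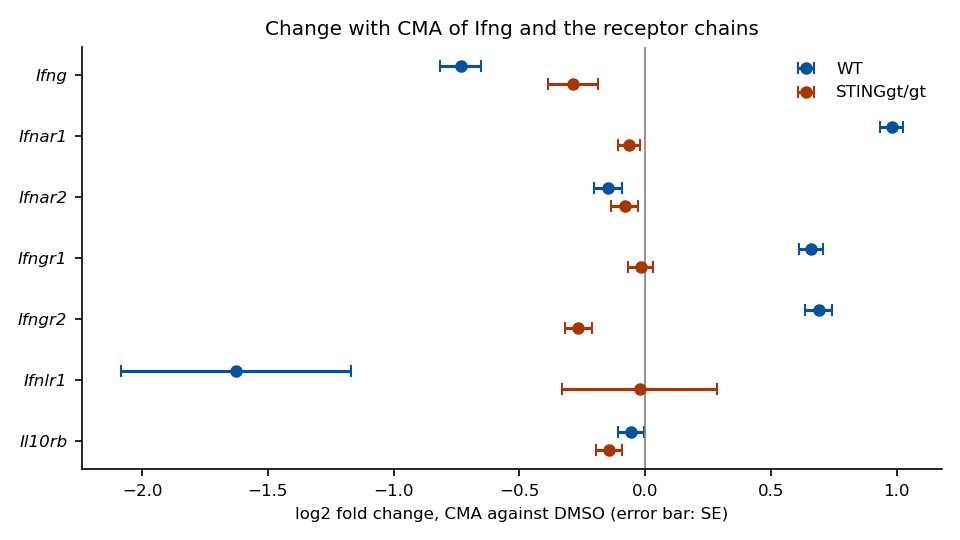
Log2 fold change with CMA against DMSO (horizontal axis, points with standard errors) of Ifng and the 6 receptor chains in WT and in STINGgt/gt T cells. In WT, Ifnar1 (0.98), Ifngr1 (0.66) and Ifngr2 (0.69) lie to the right of 0, Ifng (-0.73) and Ifnlr1 (-1.63) to the left, and Ifnar2 and Il10rb close to 0, while the STINGgt/gt points lie between -0.29 and -0.02.

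**Figure D4:**
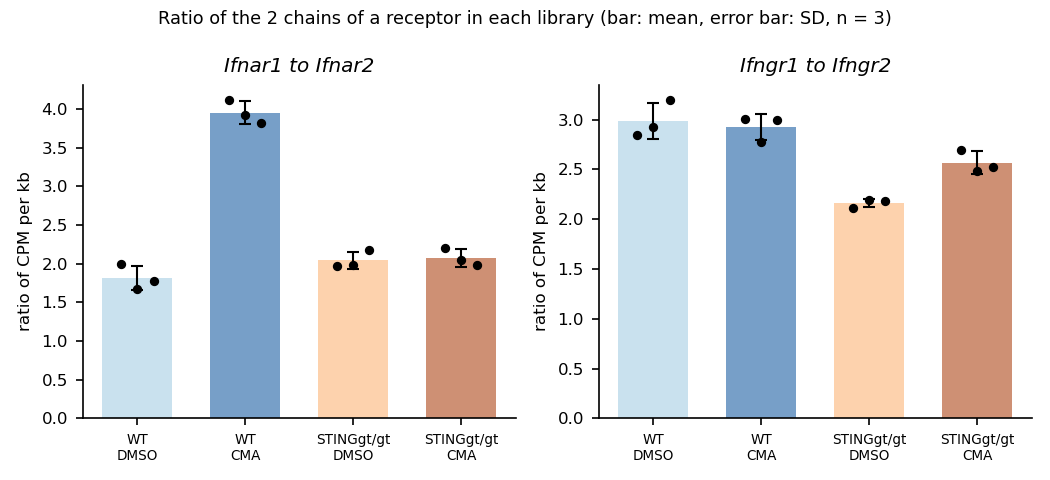
Ratio of Ifnar1 to Ifnar2 and of Ifngr1 to Ifngr2, in CPM per kilobase of exon, with a point for each library, a bar for the mean and an error bar for the SD. The ratio of Ifnar1 to Ifnar2 is 3.82 to 4.11 in WT with CMA and at most 2.20 elsewhere, whereas the ratio of Ifngr1 to Ifngr2 is 2.77 to 3.01 in WT with CMA and 2.84 to 3.19 in WT with DMSO.

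The genotypes were compared directly as well. With DMSO, 3 of the 10 genes were higher in WT (Ifng, Ifngr1 and Ifngr2), beside 22.9% of all genes, and 1 was lower (Il10rb), beside 19.8%. Ifnar1 was close to the threshold with a log2 difference of -0.11 (adjusted p = 0.0678, edgeR) and passed it in 7 of 20 alternative analyses. With CMA, 7 of the 10 were higher in WT, beside 37.0% of all genes, and Ifnlr1 was lower, beside 36.5%. Ifnar2 did not differ beyond its error, with a log2 difference of 0.0028 (SE 0.055, adjusted p = 0.966, edgeR). For the difference of the CMA effect between genotypes, 5 of the 10 had a more positive effect in WT, beside 27.2% of all genes, and 2 a more negative one, beside 31.6%. Because Ifnb1, Ifnl2 and Ifnl3 (all 3 among the 7, and Ifnl2 and Ifnl3 among the 5) passed the filter through WT with CMA alone, neither count is support set against its share of all genes. Ifnb1, with at most 1 read per library in STINGgt/gt, was not among the 5 by edgeR (log2 difference 4.80, SE 2.31, adjusted p = 0.0853). Its difference passed with DESeq2 (adjusted p = 0.0159) and with limma on the deposited log2 table (adjusted p = 0.000527). Over the alternatives its adjusted p ran from 0.000527 to 0.870. These comparisons share libraries with those of CMA against DMSO and are not independent of them.

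Per kilobase of exon in WT with DMSO, the order of levels was Ifng (43.9 ± 0.458 CPM), Ifngr1 (30.6 ± 1.23), Ifnar1 (18.7 ± 0.886), Ifnar2 (10.3 ± 0.411), Ifngr2 (10.3 ± 0.602), Il10rb (8.49 ± 0.344) and Ifnlr1 (0.0774 ± 0.0164; SD, n = 3). The means ± SD of Ifnar2 and Ifngr2 overlapped, and which was higher varied between libraries. In STINGgt/gt with DMSO, Ifnar1 (20.2 ± 0.931) and Ifngr1 (18.0 ± 0.401) led, and Ifnar2 (9.87 ± 0.211), Il10rb (9.33 ± 0.315), Ifng (9.19 ± 0.656) and Ifngr2 (8.30 ± 0.267) followed. There Ifng lay below Ifnar2 and above Ifngr2 within each library, and above Il10rb in 2 of 3, whereas in WT with DMSO Ifng lay above all 6 receptor chains.

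The genes of 4 of the chains lie in a row on chromosome 16, in the order Ifnar2, Il10rb, Ifnar1 and Ifngr2, all on the plus strand. Ifnar2 and Il10rb lie 575 bases apart. They had log2 changes of -0.15 and -0.06 with CMA in WT, whereas Ifnar1 and Ifngr2, which start 112 and 174 kb after the start of Ifnar2, had 0.98 and 0.69. Among 9 other tested genes within 200 kb, 5 rose and 3 fell with CMA in WT, beside 33.0% and 37.4% of all genes. Tmem50b, next after Ifngr2, rose by 0.70 (adjusted p = 2.08e-09, edgeR), the noncoding A930006K02Rik, between Il10rb and Ifnar1, rose by 1.46 (adjusted p = 1.55e-06, edgeR), and Gart, an enzyme of purine synthesis 248 kb from the start of Ifnar2, fell, with a log2 change of -1.46 (adjusted p = 2.25e-14, edgeR). In STINGgt/gt 0 of the 9 were called. A readthrough gene, Gm21970, shares exons with Ifnar2 and Il10rb. It had 0 reads in all 12 libraries, and 7.89% of the 50-base windows of Ifnar2 and 13.9% of those of Il10rb also occur in other genes' transcripts, so reads on these stretches could be left uncounted.

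**Figure D5:**
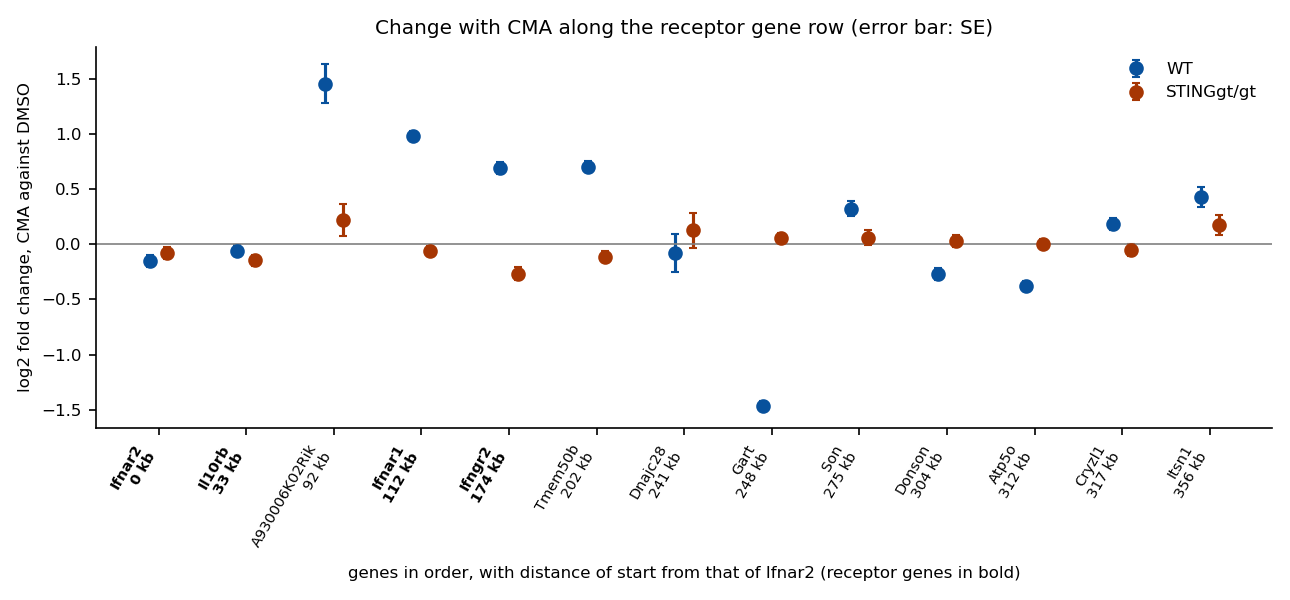
Log2 fold change with CMA against DMSO (vertical axis, points with standard errors) for the tested genes around the row of receptor genes, in their order along the chromosome and labelled with the distance of their start from that of Ifnar2. In WT, Ifnar2 and Il10rb lie near 0 and Ifnar1 and Ifngr2 at 0.98 and 0.69, while STINGgt/gt points range from -0.27 to 0.22.

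Neighbours of Ifnl2, Ifnl3 and Ifnb1 had smaller log2 changes than these genes, and no neighbour of Ifng or Ifngr1 was tested. Around Ifnl2 and Ifnl3, 12 other genes within 200 kb were tested. With CMA in WT 6 rose and 6 fell, beside 33.0% and 37.4% of all genes. The log2 changes of the 12 ran from -0.60 (Fbxo17) to 1.27 (Lrfn1). Around Ifnb1, Focad fell, with a log2 change of -1.05, and Klhl9 had 0.02. Around Ifnlr1, 3 of 4 tested genes fell, with log2 changes from -0.43 (Nipal3) to -0.19 (Pnrc2), and Cnr2 had -0.08 and did not pass. In STINGgt/gt none of these neighbours was called by edgeR.

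Genes that act before and after the receptors were counted as lists, to be read beside the shares of all genes. With CMA, 33.0% of all genes were higher and 37.4% lower in WT, and 0.398% and 0.920% in STINGgt/gt. Of 10 genes of interferon induction, 7 rose and 1 fell in WT (median log2 change 0.70). Irf7, the transcription factor needed for most IFN-α genes, went from 9.13 to 474 CPM, a log2 change of 5.69 (adjusted p = 5.59e-15, edgeR), and Irf5 from 23.4 to 174 CPM, a change of 2.90 (adjusted p = 1.09e-16, edgeR). Irf3 fell, with a log2 change of -0.25 (adjusted p = 0.00373, edgeR), and Nfkb1 had -0.04 (adjusted p = 0.337, edgeR). In STINGgt/gt 1 of 10 was called, Irf1, with a log2 change of 0.29 (adjusted p = 0.00383, edgeR).

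Of 10 genes that carry the signal from the receptors, 7 rose and 1 fell in WT (median 0.77). Stat2 and Irf9, parts of the factor activated by type I and type III interferon, rose by 1.98 (adjusted p = 3.77e-14, edgeR) and 1.36 (adjusted p = 5.46e-12, edgeR). Stat3 fell, with a log2 change of -0.16 (adjusted p = 0.00368, edgeR), and Jak1, the kinase common to all of these receptors, had -0.08 (adjusted p = 0.214, edgeR). None of the 10 was called in STINGgt/gt by edgeR.

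Of 9 measured genes on a list drawn up as brakes on the receptors, 6 rose and 2 fell in WT (median 0.20). Whether each gene listed acts as a brake in these mouse cells was not tested. Isg15 went from 11.7 to 427 CPM (log2 change 5.17, adjusted p = 1.54e-15, edgeR) and Usp18, which binds IFNAR2 and blocks its signal, from 29.3 to 478 CPM (log2 change 4.02, adjusted p = 3.97e-14, edgeR). Socs3 and Ptpn2, both inhibitors of JAK and STAT signalling, fell, with log2 changes of -0.37 (adjusted p = 8.06e-06, edgeR) and -0.21 (adjusted p = 0.00126, edgeR). In STINGgt/gt Socs3 was the one called, with -0.25 (adjusted p = 0.0395, edgeR).

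Of 20 interferon target genes, 19 rose in WT, with a median log2 change of 3.34. By the test of the difference, 19 had a more positive effect in WT than in STINGgt/gt, beside 27.2% of all genes. Oasl1 went from 2.09 to 408 CPM (log2 change 7.60, adjusted p = 1.60e-19, edgeR) and Rsad2, which encodes viperin, from 1.66 to 279 CPM (7.37, adjusted p = 6.38e-19, edgeR). Cd274, the gene for PD-L1, rose least, by 0.52 (adjusted p = 6.24e-08, edgeR), and Ciita, the IFN-γ-responsive regulator of MHC class II genes, fell, with a log2 change of -0.28 (adjusted p = 0.0306, edgeR). In STINGgt/gt 4 of 20 rose, all by less than 0.5 on the log2 scale (Cxcl10 by 0.43, Irgm1 by 0.35, Gbp2 by 0.28 and Gbp4 by 0.24).

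With the 12 libraries as points, the genes whose log2 CPM was most like that of a member were sought among 11191 others with a mean of at least 50 counts. The points share 4 groups, so these values describe the pattern over groups. For Ifnl3 they were Irf5 (Pearson r = 0.998), Scin (0.997) and Serpinb9 (0.997), for Ifnl2 Ccdc28a (0.997), Clic4 (0.996) and Fam126a (0.996), and for Ifng Plekho2 (0.997), Arl4c (0.996) and Rnh1 (0.994). Ifnar1 was most like Tbc1d1 (0.998), Dopey2 (0.996) and Add1 (0.996), Ifngr1 like Psap (0.997) and Sema4f (0.997), and Ifngr2 like Vps39 (0.995), Sdc4 (0.992) and Anxa2 (0.992). For Ifnar2 the values were lower, with Vhl (0.961), Tm2d1 (0.921) and Matk (0.874), and for Il10rb lower again, with Slc9a3r1 (0.860), Pts (0.846) and 2700097O09Rik (0.834).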

How the data were processed

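Per the methods, CMA was used at 125 µg/ml overnight (16 h per the labels), with DMSO as control, on splenic T cells of mice aged 8 to 12 weeks. Sorted as naive cells, they had first been through 2 days of culture with antibodies to CD3 and CD28 and 1 day without. For each of the 12 libraries the authors deposited unnormalized counts per Ensembl gene. Their log2 table covers 11921 genes and equals the log2 of the count plus 0.5 scaled by 1 factor per library. The submitters' processing notes name STAR 2.4.0f1, HTSeq 0.6.1, cutadapt 1.3 and RSEM 1.2.16. The strand setting is not given in the sources used here. Lines of the count files that name no gene were left out (no feature 4.86 to 7.16%, ambiguous 0.594 to 0.635% and not uniquely aligned 27.8 to 30.3% of the sum of all lines). The files hold 0 columns of per-sample values that were not used.

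The 10 genes and all gene lists were chosen with earlier results of these data known. Counts were tested with edgeR 4.0.16 (R 4.3.3; glmQLFit and glmQLFTest, TMM scaling, filterByExpr, the 4 groups in 1 model without a block), with Benjamini-Hochberg adjustment over 13811 genes, after the code was tested on simulated data. Standard errors are the log2 change divided by the square root of F. Single values were tested with an exact two-sided permutation test on log2(CPM + 0.5), which cannot go below 0.1 for 3 against 3. Ratios against a group with 1 to 3 reads carry exact (Clopper-Pearson) intervals. These pool the reads of a group, take each read as independent and so cover counting error only. Against 0 reads, a floor of 3 counts per library was used. Levels per kilobase use merged exons of GENCODE M21 (GRCm38), promoters are RefSeq's (GRCm38.p6), and positions of genes are those of the deposited table unless stated. Named in each list are the 2 genes at either end of the order by log2 change with CMA in WT, beside those called in STINGgt/gt, and the 3 genes most like each member in log2 CPM with prior count 2, of which 1 is not reported here. The alternatives were library-size scaling, RLE size factors, DESeq2 1.42.0, limma 3.58.1 on the deposited log2 table, no filter, a minimum of 10 counts per library, a fit on just the 2 groups compared, a replicate block and leaving out each library. Replicates of a group differed by more than sampling noise (chi-square per degree of freedom 2.52 to 27.7), so each was counted as 1 sample.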

Additional observations from a re-analysis of the deposited data

Results flagged for a closer look

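For 7 of the 10 genes the response to CMA was unlike in both genotypes by the test of the difference itself (edgeR, adjusted over all genes tested), 5 more positive in WT and 2 more negative, beside 27.2% and 31.6% of all genes. More positive in WT was the effect on Ifnl3 (log2 difference 12.84, adjusted p = 0.00108) and on Ifnl2 (11.12, adjusted p = 0.000245), fitted values that depend on how near-zero counts are treated. Both genes passed the filter on low counts through WT with CMA alone, so their share in the count is no support, and both were called without that filter too. Ifnar1 (1.04, adjusted p = 7.80e-10), Ifngr2 (0.95, adjusted p = 1.95e-08) and Ifngr1 (0.68, adjusted p = 3.81e-07) followed. More negative in WT was the effect on Ifnlr1 (-1.61, adjusted p = 0.0210, but 0.0599 with DESeq2 and up to 0.0749 with 1 library left out) and on Ifng (-0.45, adjusted p = 0.00705). Groups of 3 libraries were too small to look for single libraries that stand apart.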

How the results depend on the processing

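Of 958 alternative values for the 50 log2 changes (10 genes in 5 comparisons), 903 kept their direction and their side of the threshold, 26 lost the call, 11 gained one and 18 changed sign. All changes of sign concerned differences that were not called. The calls of Ifnb1, Ifnl2, Ifnl3, Ifng, Ifnar1, Ifngr1, Ifngr2 and Ifnlr1 with CMA in WT held in each alternative that gave them a value. The cause of the other changes was not tested, except where fewer genes were tested.

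With at least 10 counts required in each library, 6 of the 10 genes remained to be tested, and the numbers were 3 higher and 1 lower with CMA in WT, 3 more positive and 1 more negative effect, 2 lower in WT with DMSO, and 4 higher and 0 lower in WT with CMA. Over all 12041 genes tested with that filter, the same counts were 4399 and 4343, 3697 and 3771, 2950, and 4547 and 4567. Limma on the deposited log2 table, which lacks Ifnlr1, gave 1 lower with CMA in WT, 1 more negative effect, 2 lower in WT with DMSO and 0 lower in WT with CMA. Over the 11921 genes of that table those counts were 4447, 3771, 2769 and 4387. A fit on just the compared groups gave 1 lower with CMA in WT and 0 lower in WT with DMSO, beside 4509 of 13321 and 2137 of 13135 genes. DESeq2 gave 1 more negative effect and 2 lower in WT with DMSO, as did library-size scaling and RLE size factors for the latter (2 and 2). Of all 13811 genes, DESeq2 gave 3943 more negative effects and 2828 lower in WT with DMSO. For the latter, library-size scaling gave 3195 and RLE size factors 3027. Without a filter, 2 of the 10 genes were lower with CMA in STINGgt/gt and 0 lower in WT with DMSO, beside 257 and 3057 of 22118 genes. Leaving out 1 library gave 0 to 1 lower with CMA in STINGgt/gt, 1 to 2 more negative effects and 0 to 1 lower in WT with DMSO. Over the 13991 to 14042 genes then tested, these numbers were 41 to 289, 4043 to 4572 and 2355 to 3130. This list is not complete. With CMA in WT, Ifnar2 also lost its call with RLE size factors, without a filter, with DESeq2 and without certain libraries, as given above. DESeq2 and limma added Ifnb1 to the more positive effects.

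Changes of sign were as follows. For WT against STINGgt/gt with CMA, the log2 difference of Ifnar2 was -0.0475 with library-size scaling, -0.0023 without a filter and -0.0084 on the compared groups, and leaving out 1 library gave values from -0.0365 to 0.042. For CMA in STINGgt/gt, leaving out 1 library gave -0.58 to 0.32 for Ifnl3, -0.040 to 0.013 for Ifngr1 and -0.21 to 0.13 for Ifnlr1. For Ifnl2 between genotypes with DMSO it gave -0.96 to 0.21. With the floor of 3 counts taken over the WT DMSO group rather than per library, the ratio to the floor was 724 in place of 233 for Ifnl2, 771 in place of 249 for Ifnl3, 1495 in place of 482 for the sum, 48.2 in place of 15.5 for Ifnb1 and 62.3 in place of 20.2 for Ifna4.

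Deviations of DMSO and CMA libraries of the same number correlated by 0.0019 to 0.132. Values this low do not settle whether these libraries were paired, and the main fit used no block. The deposited library names of such libraries share their first digit, except for replicate 2 of STINGgt/gt. The replicate block joined that replicate's DMSO and CMA libraries as well. With the replicate block CMA left 6 of the 10 genes higher and 3 lower in WT, and 0 higher and 1 lower in STINGgt/gt, as without it, while over all genes the numbers in STINGgt/gt were 130 and 233 in place of 55 and 127. Depth limits Ifnlr1, Ifnb1 and the STINGgt/gt levels of Ifnl2 and Ifnl3, where 1 read changes a value.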
